A study of Mus musculus with 8 samples.

Results

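The genes described here are 8 mouse members of the NLRP family that are expressed in the oocyte: Nlrp4a, Nlrp4b, Nlrp4c, Nlrp4e, Nlrp9a, Nlrp9b, Nlrp9c and Nlrp14. They were taken by symbol from a raw count table of 35976 gene symbols, and all 8 were found and passed the filter on low counts. The table holds RNA sequencing of full-grown oocytes from mouse ovaries in 4 groups of 2 libraries, with about 20 oocytes, stripped of their zona pellucida, pooled for a library. In the H2A.Z line, control oocytes labelled wild type were set against oocytes labelled a double knockout (DKO) of H2A.Z.1 and H2A.Z.2, the histone variants encoded by H2afz and H2afv. In the Mll2 line, wild-type oocytes (Mll2 WT) were set against Mll2 knockout oocytes (Mll2 KO), Mll2 being a histone H3 lysine 4 methyltransferase encoded by Kmt2b. The sources used here do not give the alleles, the driver of the deletion, the strain or the age of the mice.

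NLRP proteins belong to the NOD-like receptors, which join a nucleotide-binding NACHT domain to leucine-rich repeats and, in the NLRP branch, usually carry a pyrin domain at the amino end. The best known members assemble inflammasomes in immune cells, but a branch of the family is expressed mainly in germ cells and supplies the egg with maternal products for early development. In mice, the genes that correspond to human NLRP4 and NLRP9 have been duplicated into several related copies, while Nlrp14 has remained a single gene. Nlrp14 is a maternal-effect gene whose product has been reported to bind UHRF1, a reader of DNA methylation that oocytes hold largely in the cytoplasm. Nlrp9b has also been studied outside the ovary, in intestinal epithelium, where it was reported to sense viral RNA together with the helicase DHX9. Loss of Nlrp4e from oocytes by knockdown was reported to arrest preimplantation embryos. H2A.Z and the trimethylation of H3 lysine 4 both mark promoters.

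All 8 genes lie on mouse chromosome 7 (build mm10, RefSeq positions, with the longest coding transcript of GENCODE). Nlrp9c at chr7:26364691-26403700 on the minus strand, Nlrp4a at chr7:26435113-26476142 on the plus strand and Nlrp9a at chr7:26535023-26574148 on the plus strand stand next to each other. The other 5 are on the plus strand and apart: Nlrp4c at chr7:6045161-6105149, Nlrp4b at chr7:10687793-10730168, Nlrp9b at chr7:19991393-20062942, Nlrp4e at chr7:23301192-23362277 and Nlrp14 at chr7:107113455-107198103. Their coding transcripts have 9 to 11 exons and are between 3216 bases (Nlrp9c) and 4259 bases (Nlrp4a) long. Nlrp9a and Nlrp9c transcripts were identical at 88.2% of aligned bases, and Nlrp9b was identical to them at 83.8% and 83.3%. Nlrp4c and Nlrp4e shared 93.2% of aligned bases and Nlrp4a was near 85% identical to both (84.6% and 85.2%), while Nlrp4b was the most distant of its group at 78.0% to 78.7%. Nlrp14 was identical to the other 7 at 59.0% to 61.2% of aligned bases.

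The sequences before the annotated starts are shown because the copies closest in transcript are not always the closest there. They come from the RefSeq promoter table of GRCm38.p6 (the mm10 assembly), which held 7 of the 8 genes; Nlrp14 is the gene without an entry. The Nlrp9a stretch, chr7:26534846-26535022 on the plus strand, and the Nlrp9c stretch, chr7:26403745-26403916 on the minus strand, are read 5′ to 3′, with capitals for bases that differ from, or have no partner in, the other gene.
Nlrp9a: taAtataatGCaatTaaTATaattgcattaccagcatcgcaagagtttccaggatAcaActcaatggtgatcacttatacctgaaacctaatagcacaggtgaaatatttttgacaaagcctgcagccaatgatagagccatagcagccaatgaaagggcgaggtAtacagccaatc
Nlrp9c: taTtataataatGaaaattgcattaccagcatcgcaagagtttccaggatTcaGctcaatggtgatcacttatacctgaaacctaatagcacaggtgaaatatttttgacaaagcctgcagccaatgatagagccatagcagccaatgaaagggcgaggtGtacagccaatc
These were identical at 167 of 172 aligned bases (97.1%), and each was the best match of the other among 32850 promoters compared. The stretch before Nlrp9b, chr7:20007773-20008022 on the plus strand, lies within the annotated gene body before an internal start, and none of its 3 best-scoring matches was another of these genes. Its capitals mark 1 match each of TAATTG, a homeodomain core, and of the E-box CANNTG.
Nlrp9b: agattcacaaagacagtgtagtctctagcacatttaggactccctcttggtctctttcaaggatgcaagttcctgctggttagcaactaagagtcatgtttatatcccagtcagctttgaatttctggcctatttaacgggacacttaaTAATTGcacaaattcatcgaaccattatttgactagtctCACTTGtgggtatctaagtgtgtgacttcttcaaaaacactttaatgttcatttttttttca
In the Nlrp4 group, the stretch before the second start of Nlrp4a (chr7:26435364-26435613, plus strand) was the best match for both Nlrp4b (chr7:10687551-10687782, plus strand) and Nlrp4c (chr7:6044941-6045160, plus strand). Capitals in the Nlrp4b and Nlrp4c sequences mark bases that differ from, or have no partner in, Nlrp4a.
Nlrp4a: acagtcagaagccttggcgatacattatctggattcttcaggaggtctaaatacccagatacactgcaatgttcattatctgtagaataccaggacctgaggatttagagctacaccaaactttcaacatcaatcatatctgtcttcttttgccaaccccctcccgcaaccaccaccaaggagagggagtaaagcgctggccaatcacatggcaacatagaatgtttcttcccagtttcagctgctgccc
Nlrp4b: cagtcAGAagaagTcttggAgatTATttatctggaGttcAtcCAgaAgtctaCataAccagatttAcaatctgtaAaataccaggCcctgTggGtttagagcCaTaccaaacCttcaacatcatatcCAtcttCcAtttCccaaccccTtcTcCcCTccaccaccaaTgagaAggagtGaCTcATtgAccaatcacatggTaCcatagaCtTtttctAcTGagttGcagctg
Nlrp4c: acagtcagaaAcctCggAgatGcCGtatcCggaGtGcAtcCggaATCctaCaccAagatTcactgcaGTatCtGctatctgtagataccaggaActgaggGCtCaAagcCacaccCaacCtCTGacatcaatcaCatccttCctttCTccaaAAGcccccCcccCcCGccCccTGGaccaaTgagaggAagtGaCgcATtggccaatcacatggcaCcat
Nlrp4b was identical to Nlrp4a at 183 of 227 aligned bases (80.6%), and Nlrp4c at 166 of 210 (79.0%). The Nlrp4e promoter matched none of the other members among its 3 best-scoring promoters, although its transcript is the one closest to Nlrp4c.

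Over windows of 300 bases, 250 before and 50 after the start, these promoters held between 0 CpG dinucleotides (Nlrp4e) and 7 (Nlrp4c), beside a median of 7 over all 32851 promoters of the table. Their GC content ran from 36% (Nlrp9a) to 53% (Nlrp4c), beside a median of 52.7%. Motifs were searched on both strands. The E-box CANNTG was present in every one of these windows, as it was in 72.3% of all promoters. The homeodomain core in the form TAATTG occurred in Nlrp9a and Nlrp9b and in 8.0% of all promoters. Its other form, TAATTA, occurred in Nlrp9a alone, at positions that do not overlap the first form, and in 5.29% of all promoters. The letters TATAAA, searched for the TATA element, occurred in Nlrp9b alone and in 13.6% of all promoters. In Nlrp9b the match lies on the opposite strand, as tttata in the stretch printed above. A further motif, CCAAT, was chosen after the sequences had been seen: Nlrp4c, Nlrp9a and Nlrp9c each had 3 matches on either strand, Nlrp4b had 2, Nlrp4e and the second start of Nlrp4a had 1, and Nlrp9b and the first start of Nlrp4a had 0. Of all promoters, 37.4% held CCAAT and 3.37% held at least 3 matches. A match is a run of letters only, and binding was not measured here.

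Libraries held 20309233 to 30087863 counts and between 21077 and 22212 genes with a count. Replicates of each group differed by more than sampling noise (chi-square per gene 4.67 to 36.8, highest in Mll2 KO). No label ties the replicates to separate mice, so the p-values below measure the spread between libraries, which may be technical. Kmt2b fell in Mll2 KO, from 41.9 and 42.4 to 8.73 and 9.27 CPM (counts per library total, on a common scale). H2afz and H2afv went against the DKO label. H2afz was at 23.9 and 29.9 CPM in H2A.Z control and at 322 and 317 CPM under the DKO label, and H2afv at 107.8 and 107.1 CPM against 285 and 294 CPM. Kmt2b was higher under the DKO label (0.49 ± 0.15; edgeR adjusted p = 0.0180), a call lost in 6 of 16 alternatives. H2afz was also higher in Mll2 KO, at 19.4 and 14.98 CPM against 7.04 and 7.09 CPM in Mll2 WT (1.28 ± 0.15; edgeR adjusted p = 1.21e-05). Each direction below in the H2A.Z line is therefore the direction as labelled. The 10 oocyte markers summed to between 18832 and 33226 CPM per library, and the 12 granulosa and cumulus markers to between 98.1 and 129 CPM. The highest of these 12 on average over the 8 libraries were Cyp19a1 (47.1 CPM) and Nr5a2 (40.1 CPM). Foxl2 (0.072 CPM), Amhr2 (0.032 CPM) and Amh (0.011 CPM) were near 0. Blood, immune and endothelial markers summed to 21.4 to 42.0 CPM, with Hbb-bs, Hba-a1 and Cdh5 at 0 throughout.

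CPM values here were scaled with edgeR's TMM factors (trimmed mean of M-values), and they compare a gene between libraries. Each library measures shares of a fixed amount of cDNA from a pool, so fewer transcript-bearing oocytes and less RNA per oocyte cannot be told apart. Together, the 8 genes took 0.547% to 1.03% of all counts in a library. Nlrp14 was the most abundant, at 5614 and 5134 CPM in H2A.Z control, 4440 and 4497 under the DKO label, 2594 and 4016 in Mll2 WT and 2709 and 2568 in Mll2 KO. By mean CPM its rank was 12 among the 35976 symbols. The H2A.Z line libraries all lay above the Mll2 line libraries.

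Nlrp9c, the most abundant Nlrp9 copy, was at 1738 and 1558 CPM in H2A.Z control, 1758 and 1902 under the DKO label, 865 and 1182 in Mll2 WT and 775 and 459 in Mll2 KO. Nlrp9a was at 915 and 820, 830 and 812, 417 and 629, and 403 and 340 CPM in the same order of groups. Nlrp9b was at 821 and 758, 633 and 638, 479 and 649, and 322 and 261 CPM. For all 3 Nlrp9 copies both Mll2 KO libraries were the lowest of the 8.

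Among the Nlrp4 copies, Nlrp4a was at 968 and 848 CPM in H2A.Z control, 789 and 773 under the DKO label, 785 and 848 in Mll2 WT and 668 and 574 in Mll2 KO. Nlrp4b was at 664 and 594, 633 and 613, 470 and 597, and 511 and 487 CPM in that order. Nlrp4a was lowest in the Mll2 KO libraries, and Nlrp4b in the first Mll2 WT library. Nlrp4e was at 92.5 and 74.2, 92.0 and 88.2, 112 and 95.7, and 104.9 and 137 CPM. Nlrp4c, the scarcest of the 8, was at 21.8 and 17.3, 25.8 and 25.1, 11.1 and 13.0, and 7.82 and 9.17 CPM, from 232 to 583 counts in a library. Nlrp4e was the only one of the 8 whose highest library belonged to Mll2 KO.

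**Figure D1:**
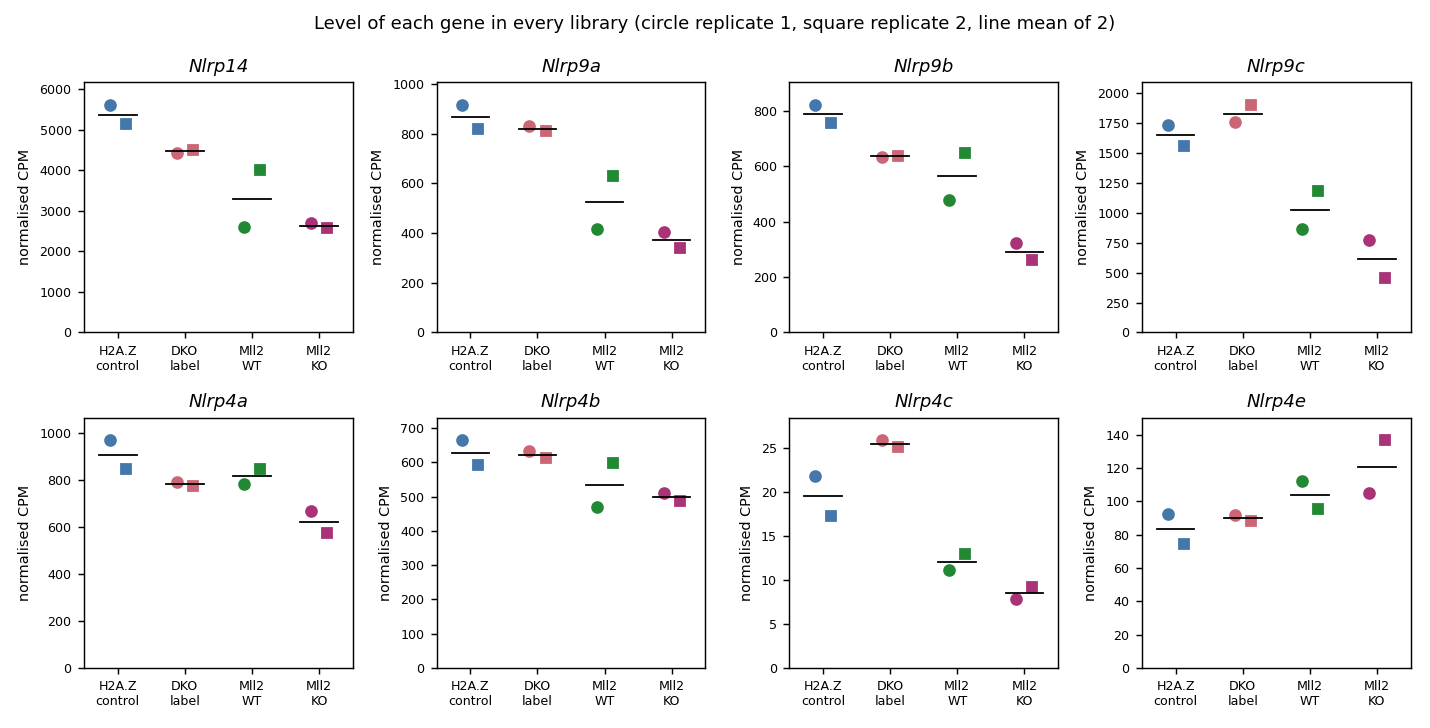
Normalised CPM (vertical axes, each from 0) of the 8 genes in the 4 groups (horizontal axes), with circles for replicate 1, squares for replicate 2 and a line at the mean of the 2 libraries. The Mll2 KO points of Nlrp9a, Nlrp9b, Nlrp9c, Nlrp4a and Nlrp4c lie below both Mll2 WT points, and the Mll2 WT points of Nlrp14 lie far apart at 2594 and 4016.

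To compare genes with each other, CPM were divided by transcript length in kilobases. Nlrp14 stood first in every group, from 1642 ± 104 CPM per kb (SD, n = 2) in H2A.Z control to 806 ± 30.4 in Mll2 KO, and its libraries did not overlap those of the gene ranked next. Nlrp9c came second in every group, from 569 ± 31.6 CPM per kb under the DKO label to 192 ± 69.5 in Mll2 KO, where it overlapped Nlrp4b. Nlrp4e and then Nlrp4c were last in every group, at 24.6 ± 3.83 and 5.41 ± 0.885 CPM per kb in H2A.Z control. The 4 genes between them changed order. In H2A.Z control the order was Nlrp9a, Nlrp9b, Nlrp4a, Nlrp4b, of which Nlrp9b overlapped Nlrp4a and Nlrp4a overlapped Nlrp4b. In Mll2 WT the order was Nlrp4a, Nlrp9b, Nlrp4b, Nlrp9a, all overlapping their neighbours. In Mll2 KO it was Nlrp4b, Nlrp4a, Nlrp9a, Nlrp9b, with overlap between the first pair only. Nlrp9b thus stood lowest of these 4 in Mll2 KO, at 87.1 ± 12.8 CPM per kb.

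**Figure D2:**
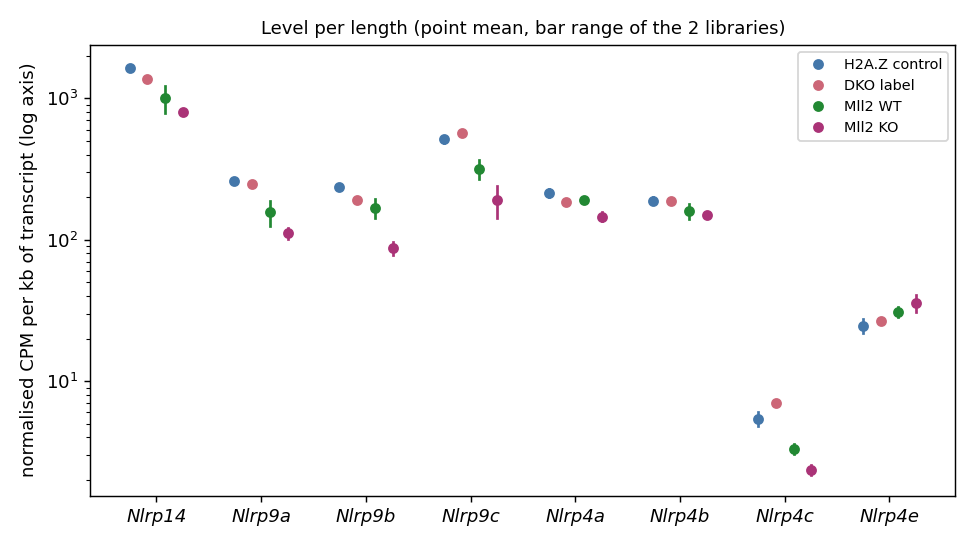
Normalised CPM per kilobase of transcript (vertical axis, logarithmic) for the 8 genes (horizontal axis) in the 4 groups, as the mean (point) and range (bar) of 2 libraries. Nlrp14 and Nlrp9c are highest and Nlrp4e and Nlrp4c lowest in each group.

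The comparison of Mll2 KO with Mll2 WT asks which oocyte transcripts differ when this methyltransferase is lost. Nlrp9b fell most, 1.94-fold (log2 fold change -0.95 ± 0.14 SE; edgeR adjusted p = 9.52e-05), from 564 ± 120.0 to 291 ± 42.9 CPM (SD, n = 2). Nlrp9c fell 1.66-fold (-0.73 ± 0.22; edgeR adjusted p = 0.0282) and Nlrp9a 1.41-fold (-0.49 ± 0.15; edgeR adjusted p = 0.0240), so that all 3 Nlrp9 copies were lower. Of the Nlrp4 copies, Nlrp4c fell 1.42-fold (-0.50 ± 0.18; edgeR adjusted p = 0.0398) and Nlrp4a 1.31-fold (-0.40 ± 0.11; edgeR adjusted p = 0.0138). In total 5 of the 8 were called lower and 0 higher at an adjusted p under 0.05, where 16.2% of the 16847 genes tested were called lower and 14.4% higher (30.6% in all). The same 5 genes had both Mll2 KO libraries below both Mll2 WT libraries, as did 32% of all genes tested. The median log2 fold change was -0.44 over the 8 genes and 0.02 over all genes.

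The other 3 genes did not pass the test. Nlrp14 had a log2 fold change of -0.32 ± 0.16 (edgeR adjusted p = 0.125), Nlrp4b of -0.10 ± 0.12 (edgeR adjusted p = 0.569) and Nlrp4e of 0.22 ± 0.14 (edgeR adjusted p = 0.253). In each of them the libraries of the 2 groups overlapped. Without the filter on low counts Nlrp14 was called lower, where 3007 of 27189 genes were. Under 3 scalings (TMM, relative log expression and library size alone) 7 of the 8 genes lay below the median of all genes, and scaling by library size alone moved that median from 0.02 to 0.14. With library size alone Nlrp4b was at 0.03, and the split of all calls in this comparison went from 47.1% to 62.9% higher.

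Which libraries entered the fit decided most of these calls. Nlrp9b alone kept its call in all 16 alternatives, with log2 fold changes from -1.16 to -0.74 and a highest adjusted p of 0.00445. Nlrp4c lost its call in 10 of the 16, among them relative log expression, library size alone and DESeq2. Nlrp9a and Nlrp9c each lost theirs in 5 and Nlrp4a in 2. Without the second Mll2 WT library Nlrp9b was at -0.74 and kept its call, while Nlrp4a, Nlrp4c, Nlrp9a and Nlrp9c lost theirs. Nlrp9a was then at -0.19 (edgeR adjusted p = 0.353), Nlrp9c at -0.51 (edgeR adjusted p = 0.139) and Nlrp14 at 0.01 (edgeR adjusted p = 0.978). Without the first Mll2 WT library Nlrp14 was called lower, at -0.61 (edgeR adjusted p = 0.00650), and Nlrp4c lost its call (-0.62, edgeR adjusted p = 0.0614). Without the first Mll2 KO library Nlrp4c and Nlrp9a lost their calls, and Nlrp4e was called higher (0.41). Without the second Mll2 KO library Nlrp9c (-0.44) and Nlrp9a (-0.42) lost their calls. Fitting the 4 libraries of the Mll2 line alone left Nlrp9b as the only gene called lower (-0.95, edgeR adjusted p = 0.00445), where 11.3% of 16127 genes were.

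**Figure D3:**
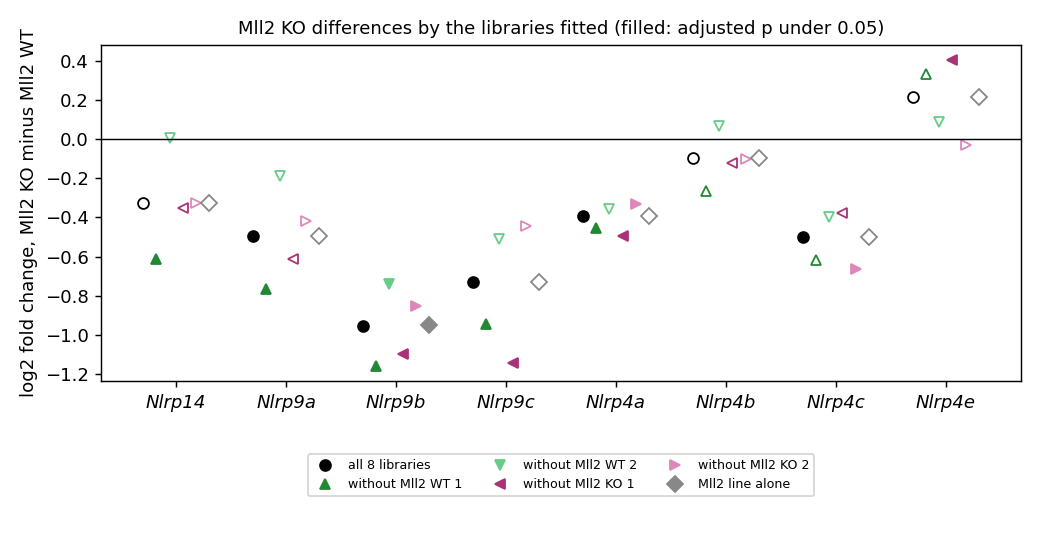
Log2 fold change of Mll2 KO against Mll2 WT (vertical axis) for the 8 genes (horizontal axis) with all 8 libraries, with each Mll2 line library left out in turn and with the Mll2 line fitted alone. Filled symbols had an edgeR adjusted p under 0.05, and Nlrp9b is filled in every case shown.

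The spread between the 2 Mll2 WT libraries was wide for several of these genes. Nlrp14 differed 1.55-fold between them and Nlrp9a 1.51-fold, both higher in the second library. Of the 8021 genes at a mean of at least 10 CPM in that group, 0.598% differed by more than Nlrp14 and 0.711% by more than Nlrp9a, and the median gene differed 1.07-fold. Nlrp9c (1.37-fold), Nlrp9b (1.35-fold) and Nlrp4b (1.27-fold) were also higher in the second Mll2 WT library. In Mll2 KO, where the median gene differed 1.17-fold between libraries, Nlrp9c differed 1.69-fold, with 2.56% of genes differing by more. The libraries labelled DKO lay close together for all 8 genes, between 1.01-fold (Nlrp9b, Nlrp14) and 1.08-fold (Nlrp9c) apart.

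Of the 10 oocyte markers, 5 were called lower in Mll2 KO, where 16.2% of all genes tested were. They were Zp2, a zona pellucida protein (-0.82 ± 0.25; edgeR adjusted p = 0.0363), Dppa3 (-0.55 ± 0.14; edgeR adjusted p = 0.00901), Npm2 (-0.37 ± 0.10; edgeR adjusted p = 0.0129), Oosp1 (-0.31 ± 0.10; edgeR adjusted p = 0.0331) and the oocyte linker histone H1foo (-0.33 ± 0.12; edgeR adjusted p = 0.0446). The other 5 were not called: Zp3 (-0.32; edgeR adjusted p = 0.149), Bmp15 (-0.29; edgeR adjusted p = 0.0713), Mos (-0.17; edgeR adjusted p = 0.201), Zp1 (-0.13; edgeR adjusted p = 0.453) and Gdf9 (0.01; edgeR adjusted p = 0.940). The sum of the 10 markers was 22019 and 18832 CPM in Mll2 KO, below the 23538 and 27674 CPM of Mll2 WT, without overlap, and their median log2 fold change was -0.32. The 12 granulosa and cumulus markers stood at 98.1 and 101 CPM summed in Mll2 WT, beside 101 and 98.4 CPM for Mll2 KO. Of the 9 tested, 4 were called, where 30.6% of all genes tested were called in either direction. Cyp19a1, the aromatase of granulosa cells (-0.78; edgeR adjusted p = 0.000171), Kitl (-0.83; edgeR adjusted p = 0.00496) and Star (-1.84; edgeR adjusted p = 0.00549) were lower and Nr5a2 (0.75; edgeR adjusted p = 0.000230) was higher. The others tested were not called: Inha (2.03), Hsd17b1 (1.88), Fst (1.64), Inhba (0.44) and Cyp11a1 (-0.21). Of these, Inha, Hsd17b1, Fst and Inhba averaged at most 1.16 CPM in either group. The median of the 9 was 0.44. Of the 2 blood, immune and endothelial markers tested, Cd68 was called lower (-1.01; edgeR adjusted p = 0.0245). Pecam1 was not called (0.19; edgeR adjusted p = 0.327). The part of these marker changes in the Nlrp result was not tested.

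The comparison of the libraries labelled DKO with H2A.Z control asks which oocyte transcripts differ between the H2A.Z groups. None of the 8 genes was called by edgeR, where 11.5% of all genes tested were called lower and 19.4% higher (30.9% in all). At an unadjusted p under 0.05 there were 2, Nlrp9b and Nlrp4c, where 41.3% of all genes tested were under it, and DESeq2 called 1, Nlrp9b, lower. Nlrp9b had a log2 fold change of -0.31 ± 0.14 (edgeR adjusted p = 0.0929), Nlrp14 of -0.27 ± 0.15 (edgeR adjusted p = 0.209) and Nlrp4a of -0.22 ± 0.11 (edgeR adjusted p = 0.151). In these 3 genes both libraries labelled DKO lay below both controls, as did 26.9% of all genes tested. Nlrp4c, at 0.38 ± 0.17 (edgeR adjusted p = 0.0965), and Nlrp9c, at 0.15 ± 0.22 (edgeR adjusted p = 0.639), had both libraries above both controls, as did 43.4% of all genes. Nlrp4e (0.11 ± 0.14, or -0.0051 with library size alone; edgeR adjusted p = 0.575), Nlrp9a (-0.08 ± 0.15; edgeR adjusted p = 0.731) and Nlrp4b (-0.01 ± 0.12; edgeR adjusted p = 0.944) overlapped. The median was -0.05 over the 8 genes and 0.12 over all genes.

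The calls in this comparison also depended on which libraries entered the fit. With the 4 libraries of the H2A.Z line fitted alone, 4 genes were called lower: Nlrp9b (-0.44, edgeR adjusted p = 2.51e-06), Nlrp14 (-0.39, edgeR adjusted p = 1.22e-05), Nlrp4a (-0.34, edgeR adjusted p = 0.000135) and Nlrp9a (-0.20, edgeR adjusted p = 0.0152). In that fit 22.2% of 15721 genes were called lower, and the median of all genes was 0.0056. Library size alone moved the median of all genes from 0.12 to 0.0017 and called Nlrp9b, Nlrp4a and Nlrp14 lower, where 14.6% of all genes were, with 6 of the 8 genes below the median under each of the 3 scalings. The split of all calls went from 62.9% to 45.5% higher. With 1 library left out, the log2 fold change ran from -0.43 to -0.25 for Nlrp9b, from -0.39 to -0.20 for Nlrp14 and from -0.34 to -0.12 for Nlrp4a. Whether these genes were called varied among those fits. None of the 10 oocyte markers was called in this comparison by edgeR, and their median was -0.01. The 12 granulosa and cumulus markers summed to 104 and 107.8 CPM in H2A.Z control and to 128 and 129 CPM under the DKO label, without overlap. Of the 9 tested, 2 were called higher, Cyp11a1 (0.91; edgeR adjusted p = 0.00284) and Nr5a2 (0.39; edgeR adjusted p = 0.0228), where 19.4% of all genes tested were. Fst, under 1 CPM in every library of the line, was called lower (edgeR adjusted p = 0.0207). The others tested were not called: Hsd17b1 (-1.16), Inha (-0.49), Inhba (-0.11), Cyp19a1 (0.10), Kitl (0.15) and Star (0.21). Amh, Foxl2 and Amhr2 did not pass the filter on low counts. Of the blood, immune and endothelial markers 2 were tested. Pecam1, an endothelial marker, was higher (0.56; edgeR adjusted p = 0.00787), while Cd68 was at -0.77 and not called (edgeR adjusted p = 0.0828). The part of these markers in the values of the Nlrp genes was not tested.

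**Figure D4:**
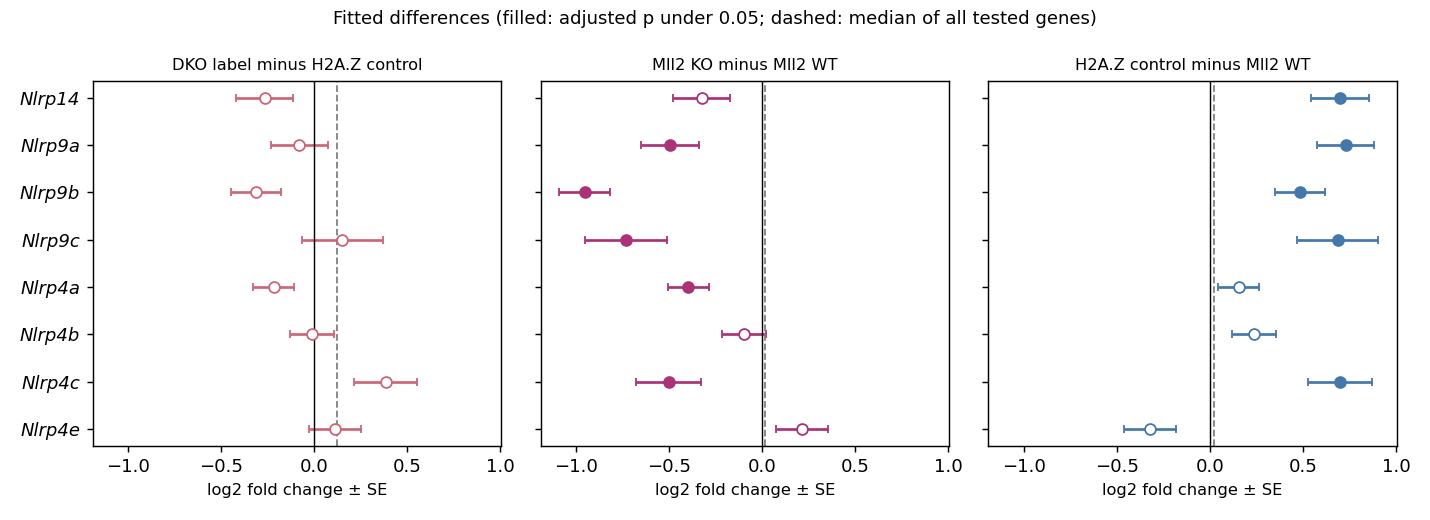
Log2 fold changes with SE (horizontal axes) of the 8 genes in 3 comparisons from the fit of all 8 libraries, filled where the edgeR adjusted p was under 0.05, with a dashed line at the median of all genes tested. No gene is filled under the DKO label, 5 are filled and lower in Mll2 KO, and 5 are filled and higher in H2A.Z control than in Mll2 WT.

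Whether the effects of the 2 lines differed was tested by their difference, the effect under the DKO label minus the effect of Mll2 KO. It was called for 2 of the 8 genes, both positive, where 12.9% of all genes were called positive and 6.68% negative. Nlrp4c differed by 0.89 ± 0.24 (edgeR adjusted p = 0.0179), with 0.38 under the DKO label and -0.50 in Mll2 KO. Nlrp9b differed by 0.64 ± 0.19 (edgeR adjusted p = 0.0278), with -0.31 under the DKO label and -0.95 in Mll2 KO. Nlrp9c, at 0.88 ± 0.31 (edgeR adjusted p = 0.0702), and Nlrp9a, at 0.41 ± 0.22 (edgeR adjusted p = 0.199), did not pass the test. The remaining 4 genes lay between -0.10 (Nlrp4e) and 0.18 (Nlrp4a), with a median of 0.12 over all genes. With library size alone neither call was kept, at 0.64 for Nlrp4c (edgeR adjusted p = 0.0833) and 0.40 for Nlrp9b (edgeR adjusted p = 0.128), and the split of all calls went from 65.8% to 37.0% positive. Without the second Mll2 WT library both calls were also lost, at 0.66 (edgeR adjusted p = 0.173) and 0.30 (edgeR adjusted p = 0.295). In all, Nlrp9b lost this call in 7 of 15 alternatives and Nlrp4c in 5.

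The 2 groups labelled as controls differed from each other in most of these genes. Nlrp9a was 1.66-fold higher in H2A.Z control than in Mll2 WT (0.73 ± 0.15; edgeR adjusted p = 0.00125), Nlrp14 1.63-fold (0.70 ± 0.16; edgeR adjusted p = 0.00175) and Nlrp4c 1.62-fold (0.70 ± 0.17; edgeR adjusted p = 0.00362). Nlrp9c was 1.61-fold higher (0.69 ± 0.22; edgeR adjusted p = 0.0256) and Nlrp9b 1.40-fold (0.49 ± 0.14; edgeR adjusted p = 0.00847). So 5 of 8 were called higher, where 19% of all genes were, and 0 lower, where 25.3% were (44.3% in all). Those 5 and Nlrp4a had both H2A.Z control libraries above both Mll2 WT libraries, as did 37.2% of all genes. Nlrp4e was at -0.32 ± 0.14 (edgeR adjusted p = 0.0732), the only one of the 8 with both H2A.Z control libraries below both Mll2 WT libraries, as in 38% of all genes. Nlrp4b (0.24; edgeR adjusted p = 0.115) and Nlrp4a (0.15; edgeR adjusted p = 0.280) did not pass the test. H2afz was 3.82-fold higher and Kmt2b 2.89-fold lower in H2A.Z control than in Mll2 WT. Line, strain background, preparation and an exchange of labels within the H2A.Z line cannot be told apart in this comparison. Without the first H2A.Z control library, or without the first Mll2 WT library, Nlrp4c, Nlrp9b and Nlrp9c lost their calls. Nlrp9a and Nlrp14 lost theirs without the first and without the second Mll2 KO library. Over the 15 alternatives Nlrp9c lost its call in 4, and Nlrp4c, Nlrp9a, Nlrp9b and Nlrp14 lost theirs in 2 each.

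Copies this similar can exchange reads when counts are assigned, so each group of copies was also tested as a sum. The summed Nlrp9 counts were 3474 and 3135 CPM in H2A.Z control, 3221 and 3353 under the DKO label, 1761 and 2460 in Mll2 WT and 1500 and 1059 in Mll2 KO. The sum fell 1.65-fold in Mll2 KO (-0.72 ± 0.17; edgeR adjusted p = 0.00467), while under the DKO label it was at -0.01 ± 0.16 (edgeR adjusted p = 0.978). Those effects differed by 0.71 ± 0.23 (edgeR adjusted p = 0.0441), a call lost in 9 of 15 alternatives, including without any 1 of the 4 H2A.Z line libraries. The call in Mll2 KO was lost without the second Mll2 KO library (-0.53, edgeR adjusted p = 0.0548), and the difference between the lines was not called without the second Mll2 WT library (0.35, edgeR adjusted p = 0.303). The summed Nlrp4 counts were 1747 and 1533, 1540 and 1499, 1378 and 1553, and 1292 and 1206 CPM in the same order. Neither the Mll2 KO change of this sum (-0.23 ± 0.11; edgeR adjusted p = 0.124) nor that under the DKO label (-0.11 ± 0.11; edgeR adjusted p = 0.482) passed the test.

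Stretches of 50 bases shared exactly with another gene's transcript made up 36.9% of Nlrp4e and 11.9% of Nlrp4c. They made up 6.54% of Nlrp9a, 6.22% of Nlrp9b, 4.99% of Nlrp9c and 3.04% of Nlrp4a. Nlrp14 and Nlrp4b shared none. With windows of 100 bases Nlrp4e still shared 11.5% and the others at most 1.36%. Nlrp4e had the largest shared part at both window lengths. It shared windows with Nlrp4c at both lengths, and with Nlrp4a and Nlrp4g at 50 bases. It also shared windows with 5 predicted genes, of which 1, Gm4541, matched a symbol of the table, with 7 to 47 counts in a library.

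Within each group of copies the proportions also differed. Nlrp9b made up 23.6% and 24.2% of Nlrp9 counts in H2A.Z control and 19.7% and 19.0% under the DKO label, while Nlrp9c made up 50.02% and 49.7% and then 54.6% and 56.7%, without overlap in either gene. In Mll2 WT Nlrp9b made up 27.2% and 26.4%, and in Mll2 KO 21.4% and 24.6%, again without overlap. Nlrp9a went from 23.7% and 25.6% in Mll2 WT to 26.9% and 32.1% in Mll2 KO. Nlrp9b was thus a smaller share of its group in both mutant groups as labelled than in their own controls. Among Nlrp4 counts, Nlrp4a took 55.4% and 55.3% in H2A.Z control against 51.2% and 51.6% under the DKO label, and 57.0% and 54.6% in Mll2 WT against 51.7% and 47.6% in Mll2 KO. The share of Nlrp4e was 8.16% and 6.16% in Mll2 WT and 8.12% and 11.3% in Mll2 KO, which overlap. These shares are given as values and were not tested.

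Across the 8 libraries, log2 CPM of Nlrp4e ran against all 7 others (Pearson r from -0.88 with Nlrp9c to -0.67 with Nlrp4c). The 7 others correlated positively with one another, most closely Nlrp9a with Nlrp14 (0.98) and Nlrp9a with Nlrp9c (0.97), and least Nlrp4a with Nlrp4c (0.64). These points share their line and group, so the values describe the pattern and carry no test. By the same measure, among genes at 10 CPM or more on average, the genes most like Nlrp9c were St7 (0.998), Enpp5 (0.997) and Ahsa1 (0.996). Those most like Nlrp9b were Rgn, Btg4 and Cryl1 (0.99 each), and those most like Nlrp9a were Rit2, Vps26a and Arl2 (0.99 each). Nlrp14 was most like Cfap36 (0.98), Cabp1 (0.97) and Zfp345 (0.97). Nlrp4a was like Nme7 and Pms1 (0.99 each), Nlrp4b like Magt1, Cfap36 and Tcp1 (0.93 to 0.95), Nlrp4c like Pum3, Gm5724 and Oog1 (0.99 each) and Nlrp4e like Amdhd2, Cdc42se2 and Riok3 (0.95 to 0.96). Cfap36 was thus named for both Nlrp14 and Nlrp4b.

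Within 100 kb of the 8 genes the table held 29 other genes, many of them olfactory or vomeronasal receptors, and 9 of these passed the filter. In Mll2 KO 3 were called lower and 1 higher, with a median of 0.25, beside 16.2% of all genes tested called lower and 14.4% higher. Ceacam20, a cell adhesion gene 280 bases from Nlrp9b, was lower (-0.39; edgeR adjusted p = 0.00921), as were Igsf23, 37739 bases from Nlrp9b (-0.44; edgeR adjusted p = 0.0116) and Cyp2a4 near Nlrp9c (-1.20; edgeR adjusted p = 0.0203). Zscan4a, near Nlrp4b, was higher (1.48; edgeR adjusted p = 0.0306). Under the DKO label Ceacam20 (0.21; edgeR adjusted p = 0.130) and Igsf23 (0.14; edgeR adjusted p = 0.415) were not called. Zscan4a (1.85; edgeR adjusted p = 0.000474) was the only neighbour called there, and the median was 0.21. Nlrp5, a subunit of the subcortical maternal complex that lies beside Nlrp4e, was at -0.48 (edgeR adjusted p = 0.0554) under the DKO label and at 0.25 (edgeR adjusted p = 0.304) in Mll2 KO.

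Of the 5 other Nlrp genes of the oocyte, Nlrp4d had 0 counts in every library and 4 were tested. Nlrp2 was at 286 and 261 CPM in H2A.Z control and 206 and 219 under the DKO label, a fall of 1.29-fold (-0.36 ± 0.12; edgeR adjusted p = 0.0310). It was the only one called in either comparison, where 30.9% of all genes tested were called under the DKO label and 30.6% in Mll2 KO. In Mll2 KO Nlrp2 was at -0.31 ± 0.12 (edgeR adjusted p = 0.0605), Nlrp4g at -0.97 ± 0.35 (edgeR adjusted p = 0.0883), Nlrp4f at -0.06 ± 0.11 (edgeR adjusted p = 0.681) and Nlrp5 as given above. The medians of the 4 were -0.22 under the DKO label and -0.19 in Mll2 KO.

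The 18 NOD-like receptor genes known from immune cells summed to 67.0 to 154 CPM in a library, most of it from Naip1 (64.1 CPM on average over the 8 libraries) and Nlrc4 (34.4 CPM). Of the 18, 6 were tested. Nlrc4, an inflammasome receptor, fell under the DKO label (-1.09 ± 0.14; edgeR adjusted p = 4.66e-05) and in Mll2 KO (-1.15 ± 0.14; edgeR adjusted p = 2.07e-05). Nod2, a sensor of bacterial cell wall, rose under the DKO label (0.73 ± 0.24; edgeR adjusted p = 0.0289), and Naip6 rose in Mll2 KO (2.38 ± 0.36; edgeR adjusted p = 0.000156) from 1.02 to 5.35 CPM on average. Of 10 inflammasome effectors, Il1b and Mefv were at 0 counts throughout and 5 were tested. Casp8 and Nek7 were lower under the DKO label (-0.71 and -1.08; edgeR adjusted p = 0.000192 and 0.000129) and in Mll2 KO (-0.29 and -0.43; edgeR adjusted p = 0.0484 and 0.0405), where Il18 was also lower (-2.94; edgeR adjusted p = 0.00313), from 1.58 to 0.202 CPM on average. Aim2, a DNA sensor, was tested but had 0 counts in all 4 libraries of the Mll2 line. The Mll2 KO count is therefore 3 lower of 4, where 16.2% of all genes tested were called lower. Under the DKO label 2 of the 5 were called lower, where 11.5% of all genes tested were. The median of the 5 under the DKO label was -0.69, the value of Casp1. Casp1 was not called there (edgeR adjusted p = 0.430) and averaged 0.632 CPM over the 8 libraries.

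The subcortical maternal complex, in which oocyte NLRP proteins sit beneath the egg membrane, had all 8 genes tested. Ooep rose (0.49 ± 0.12; edgeR adjusted p = 0.00484) and Nlrp2 fell under the DKO label, and Khdc3 fell in Mll2 KO (-0.50 ± 0.13; edgeR adjusted p = 0.00727), with medians of 0.02 and -0.10. Among 4 reported partners of these proteins, 3 were tested and Slc8b1 was near 0 CPM. Uhrf1 rose under the DKO label (0.59 ± 0.12; edgeR adjusted p = 0.00191) and in Mll2 KO (0.39 ± 0.12; edgeR adjusted p = 0.0219), and Dhx9 rose in Mll2 KO (0.86 ± 0.20; edgeR adjusted p = 0.00502). Of 8 oocyte transcription factor genes 7 were tested, and none was called lower in either comparison. Of all genes tested, 11.5% were called lower under the DKO label and 16.2% in Mll2 KO, and 19.4% and 14.4% were called higher. Figla (0.38; edgeR adjusted p = 0.0228), Taf4b (0.47; edgeR adjusted p = 0.0246) and Foxo3 (0.62; edgeR adjusted p = 0.0163) rose under the DKO label, and Lhx8 (0.34; edgeR adjusted p = 0.0202) and Taf4b (0.74; edgeR adjusted p = 0.00122) rose in Mll2 KO. The medians of these 7 were 0.09 and 0.15.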

How the data were processed

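The authors deposited raw whole-number counts per gene symbol, without normalisation, for 8 polyA RNA libraries made with low-input SMART-Seq and Nextera XT kits from 200 pg of cDNA, per the labels' protocols. Build mm10 and the tools STAR 2.7.3, RSEM 1.3.1 and Trim Galore 0.6.4 are named, per the submitters' processing notes. What each did, which annotation was counted and how shared reads were assigned is not given in the sources used here.

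Groups were those of the labels, and no library was left out. Counts were fitted in R 4.3.3 with edgeR 4.0.16 (filterByExpr by group, 16847 genes, TMM, robust quasi-likelihood test, 4 group means, 4 residual degrees of freedom). Benjamini-Hochberg adjusted p-values covered all tested genes, and genes under 0.05 are called. The SE of a log2 fold change came from the quasi-likelihood F statistic. Sums of the Nlrp4 and of the Nlrp9 copies replaced their members in a second fit. Log2 CPM for correlations used a prior count of 2. The model was tested on simulated data.

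The genes named are the 8 members, the targeted genes, up to 4 called members of each list by smallest p, every tested neighbour that was called, and the 3 genes most like each member, of which 1 is not reported here. Markers beyond this rule, uncalled genes of the lists and genes sharing sequence were named after their values were seen. The members and lists were chosen with earlier results of these data known. Transcript alignments were global and promoter alignments local.

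Replicate numbers did not pair the libraries: differences between replicates correlated by 0.04 between the H2A.Z groups and by -0.02 between the Mll2 groups, and no shared litter or day is named. Alternatives were relative log expression (RLE) factors, library size alone, no filter on low counts, at least 1 CPM in 2 libraries, DESeq2 1.42.0, no robust estimation, each line fitted alone, a replicate block and leaving out each of the 8 libraries. With 1 library left in a group, that library is assumed to vary like the others.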

Additional observations from a re-analysis of the deposited data

Results flagged for a closer look

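Between the lines, 3 values differed by the test of the difference itself, the effect under the DKO label minus the effect of Mll2 KO. Nlrp4c differed by 0.89 on the log2 scale, the summed Nlrp9 counts by 0.71 and Nlrp9b by 0.64. In Nlrp4c the effects had opposite signs, in the summed Nlrp9 counts the effect under the DKO label was near 0, and in Nlrp9b both were negative. Over the 15 alternatives the difference ran from 0.64 to 1.07 for Nlrp4c, from 0.35 to 0.94 for the summed Nlrp9 counts and from 0.30 to 0.85 for Nlrp9b. The call was lost in 5 of them for Nlrp4c, in 9 for the summed Nlrp9 counts and in 7 for Nlrp9b.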

How the results depend on the processing

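With fewer libraries or another scaling the counts of called Nlrp genes moved most, and the cause was not tested. Under the DKO label 3 were called lower with library size alone, 1 without a filter, 1 with DESeq2 and 4 with each line fitted alone, and 0 to 3 when 1 library was left out. In Mll2 KO 3 were called lower with library size alone, 3 with DESeq2 and 1 with each line alone, and 1 to 5 when 1 library was left out, with 0 to 1 called higher. For the difference between the lines, 0 were called positive with library size alone, where 6.51% of all genes were. Without a filter 4 were, beside 2622 of 27189 genes. Between the controls 1 was called lower with library size alone and 1 without a filter, and leaving out 1 library gave 2 to 6 higher and 0 to 1 lower. Over all genes, leaving out 1 library gave 2642 to 6568 calls under the DKO label, 2679 to 6819 in Mll2 KO and 1639 to 4639 for the difference between the lines.

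The summed Nlrp9 difference between the lines was not called with RLE factors (0.65), library size alone (0.47) or the replicate block (0.72), and ran from 0.35 to 0.94 when 1 library was left out. When 1 library was left out, the summed Nlrp9 counts ran from -0.98 to -0.48 in Mll2 KO, from -0.13 to 0.071 under the DKO label and from 0.42 to 0.89 between the controls. The summed Nlrp4 counts were called lower under the DKO label with each line alone (-0.23). They changed sign in the difference between the lines with library size alone (-0.12). When 1 library was left out they ran from -0.23 to -0.011 under the DKO label, from -0.32 to -0.16 in Mll2 KO and from -0.073 to 0.23 for the difference between the lines.

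Signs of small values also changed. Under the DKO label Nlrp4e was at -0.0051 with library size alone and -0.0083 with each line alone, and leaving out 1 library gave ranges of -0.038 to 0.28 for Nlrp4e, -0.14 to 0.072 for Nlrp4b and -0.20 to 0.0037 for Nlrp9a. In Mll2 KO Nlrp4b was at 0.029 with library size alone, and leaving out 1 library gave -0.26 to 0.070 for Nlrp4b, -0.029 to 0.41 for Nlrp4e and -0.61 to 0.0067 for Nlrp14. For the difference between the lines, library size alone gave -0.065 for Nlrp4a, -0.16 for Nlrp4b and -0.19 for Nlrp14, RLE factors gave -0.0065 for Nlrp14 and DESeq2 gave -0.0094. Leaving out 1 library gave -0.0078 to 0.28 for Nlrp4a, -0.21 to 0.25 for Nlrp4b, -0.41 to 0.074 for Nlrp4e, -0.016 to 0.69 for Nlrp9a and -0.40 to 0.35 for Nlrp14.

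With the replicate block Nlrp9c was not called in Mll2 KO (-0.76, edgeR adjusted p = 0.0676) or between the controls (0.61, edgeR adjusted p = 0.214). All other calls of the 8 genes were the same with the block, and it called 4987 genes under the DKO label and 4968 in Mll2 KO against 5198 and 5158 without it. Depth limits Nlrp4c most, which had 232 to 583 counts in a library.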
